A study of Mus musculus with 48 samples.

Results

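The daily course of gene expression was followed in the hypothalamus of undisturbed young mice, using 12 of the 48 RNA-seq libraries of the study. All 12 came from 2-month-old male C57BL/6 mice labelled early, free to move in the cage, in 10 dBA of noise and at normal air pressure, and each library was made from RNA pooled from 3 mice. They form 2 series, called series a and series b here, with 1 library each at the title numbers 1, 5, 9, 13, 17 and 21. The number in the title was placed on a circle of 24 units, so that its spacing is 4 units throughout. The labels name neither the unit of that number nor the light schedule, so a peak is given as a title number and not as a clock time. The 12 libraries of each of the other 3 conditions serve only as comparisons. These are early unloaded (2-month-old mice under hind limb unloading, 10 dBA, normal pressure), late quiet (3-month-old mice, 10 dBA, normal pressure) and late noise (3-month-old mice, 85 dBA, 0.9 atmosphere). Each late condition joins 1 free-moving and 1 unloaded series. The study's design text gives 2 months as the age of all mice, whereas the labels give 3 months for the late ones.

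The mammalian clock is a feedback loop in which CLOCK and BMAL1 (the product of Arntl) switch on Per, Cry, Nr1d1, Nr1d2 and the output factors Dbp, Tef and Hlf through E-boxes. PER and CRY proteins then repress CLOCK and BMAL1, and the REV-ERB receptors made from Nr1d1 and Nr1d2 repress Arntl and Nfil3. In the hypothalamus the loop is led by the suprachiasmatic nucleus, which sets feeding, sleep, body temperature and the daily surge of glucocorticoid hormone. Astrocytes and tanycytes, the glial cells lining the third ventricle, express the brain fatty-acid-binding protein Fabp7, whose messenger is known to cycle in mouse brain.

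For each gene, a cosine with a period of 24 units was fitted to log2(RPKM + 0.5), with the series as a factor. RPKM is a read count scaled by gene length and by the size of the library. The amplitude is the height of the fitted curve above its mean on this log2 scale, so the fold from trough to peak spans 2 amplitudes. A gene was called when limma's F test of the cosine and sine terms gave a Benjamini-Hochberg adjusted p below 0.05 over all 13408 genes tested. Of these, 1 gene passed (0.00746%), and 350 (2.61%) had an unadjusted p below 0.05. The lowest steps in the RPKM of single-exon genes correspond to about 14200000 to 22000000 counted reads or read pairs per library, on GENCODE M21 gene lengths. No 2 libraries held identical values. The list of hypothalamic neuron markers summed to 3669 to 11370 RPKM per library. Most of that came from Avp (1600 to 7580 RPKM) and Oxt (1210 to 3230 RPKM), and 13 of the 14 listed genes averaged at least 0.5 RPKM. The series a library at number 1 stood apart in markers of other cells, and not in these alone. Its blood list summed to 6255 RPKM, against 812.9 to 3436 RPKM in the other 11, and its striatum list to 589.8 RPKM against 90.6 to 396.6 RPKM. It also had the lowest estimated depth and the fewest genes above 0 RPKM (15547, against 15816 to 16700). The ribosomal protein gene Rplp1 read 5750 RPKM there, against 1720 to 3640 RPKM in the others. All adjusted p-values below are limma's. Nothing in the labels says whether the 2 series were separate experiments, and the spread behind each p-value is that between pools, which may be technical.

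Fabp7, which carries fatty acids in glia, was the gene that passed. In GENCODE M21 (GRCm38, matched by symbol) it lies at chr10:57784881-57788450 on the plus strand; the labels name no build for the deposited table. In series a it read 31.9, 22.3, 64.9, 91.8, 66.9 and 32.9 RPKM at numbers 1, 5, 9, 13, 17 and 21. In series b it read 22.8, 23.3, 35.8, 74.1, 76.2 and 46.6 RPKM at the same numbers. The 4 libraries at numbers 13 and 17 were the highest of the 12, and every one of the libraries at numbers 1, 5 and 21 lay below them. The fitted amplitude was 0.93 ± 0.12 (SE, 12 libraries), which is 3.65-fold from trough to peak, with a peak at 14.62 ± 0.47 (SE) and an adjusted p of 0.0148. Fitted alone, series a peaked at 13.70 and series b at 15.49, with amplitudes of 0.94 and 0.98. The peak moved by at most 0.91 over 29 alternative settings, and the amplitude stayed between 0.84 and 1.08. The call was less firm: the adjusted p was 0.118 after quantile normalization, 0.155 after centring each library on its median gene, 0.27 with the mitochondrial share as a covariate and 0.0996 when the title number was a factor of 6 levels in place of a cosine. It was also lost without the series a library at number 13 (0.134) and without the series b library at number 1 (0.147), 5 (0.0653), 13 (0.152) or 17 (0.112). No other gene of the lipid droplet and fatty acid list was called. Of its 14 members, 3 (21.4%), Fabp7 included, had an unadjusted p below 0.05, against 2.61% of all genes. Its neighbour in function Fabp5 had an amplitude of 0.09 ± 0.10 (adjusted p = 0.941) and the muscle and heart form Fabp3 one of 0.20 ± 0.10 (adjusted p = 0.921).

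The start of Fabp7 is shown because it was the single called gene, beside the starts of Arntl and Nfil3, well-known targets of the REV-ERB receptors. Each window is the RefSeq promoter on GRCm38.p6, from 250 bases before to 50 bases after the start of the gene, 5′ to 3′ on the strand of the gene. The capitals mark TAGGTCA, the core of the element bound by the REV-ERB and ROR receptors, searched on both strands.
Fabp7, chr10:57784673-57784972 (plus strand): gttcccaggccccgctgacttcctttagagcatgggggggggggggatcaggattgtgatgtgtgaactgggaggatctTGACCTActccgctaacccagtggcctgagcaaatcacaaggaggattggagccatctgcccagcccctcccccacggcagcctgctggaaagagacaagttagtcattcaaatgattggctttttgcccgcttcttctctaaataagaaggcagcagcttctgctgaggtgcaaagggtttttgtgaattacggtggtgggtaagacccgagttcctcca
Arntl, chr7:113207261-113207560 (plus strand): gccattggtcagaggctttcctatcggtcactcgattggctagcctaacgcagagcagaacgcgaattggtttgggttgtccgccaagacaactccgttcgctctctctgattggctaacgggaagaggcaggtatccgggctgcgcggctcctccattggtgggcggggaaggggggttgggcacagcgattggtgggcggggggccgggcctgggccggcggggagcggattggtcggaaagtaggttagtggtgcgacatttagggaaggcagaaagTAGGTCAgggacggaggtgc
Nfil3, chr13:52980990-52981289 (minus strand): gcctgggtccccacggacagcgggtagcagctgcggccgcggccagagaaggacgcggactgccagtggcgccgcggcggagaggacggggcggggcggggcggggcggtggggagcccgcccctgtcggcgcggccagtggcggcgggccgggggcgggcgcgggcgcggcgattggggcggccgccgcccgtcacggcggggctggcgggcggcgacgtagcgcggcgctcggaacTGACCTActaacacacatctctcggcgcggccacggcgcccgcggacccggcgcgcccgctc
Each of the 3 windows held 1 match, beginning at base 80 in Fabp7, 281 in Arntl and 239 in Nfil3. The same letters occurred in 2.6% of all 32851 RefSeq promoters. Among the 19 clock genes with an entry, only 2 had them, Arntl and Nfil3. The 3 windows shown are therefore not a sample to set against that share. The 3 genes did not share a phase, since the fitted peaks were 14.62 for Fabp7, 8.75 for Arntl and 6.37 for Nfil3. A match is a description of letters and says nothing of binding in these animals.

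**Figure D1:**
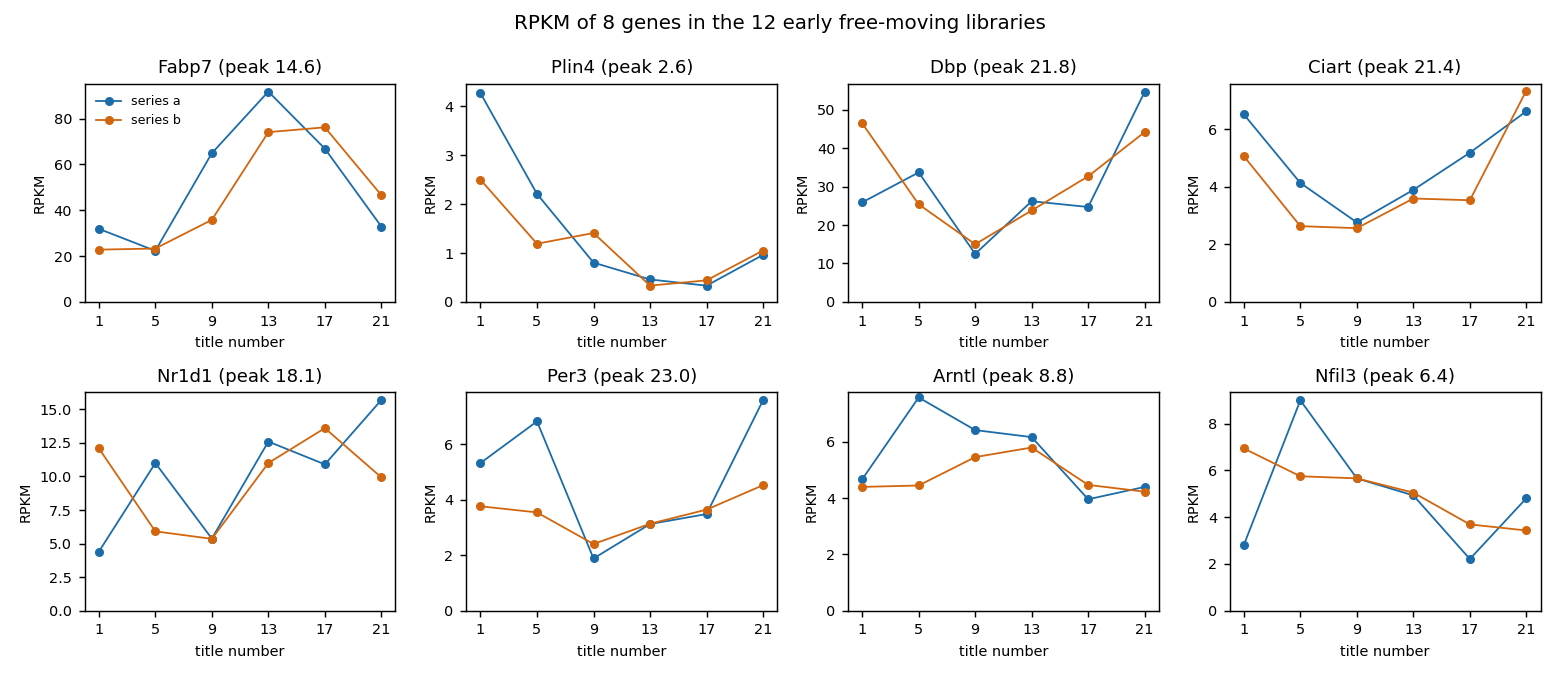
RPKM (vertical axis, from 0) against title number (horizontal axis) for 8 genes, 1 point per library, series a in blue and series b in orange, with the fitted peak above each panel. Fabp7 was highest at numbers 13 and 17 in both series, Plin4 at number 1, and Ciart and Dbp had their lowest values at number 9 in both.

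Just outside the threshold lay Plin4 and Spon2, followed by Smim40, Mfsd2a, Dbp and Ciart (chosen here after their values were seen, as the smallest p-values). Plin4 coats lipid droplets and is a known glucocorticoid target. It read 4.27, 2.21, 0.804, 0.459, 0.332 and 0.962 RPKM in series a and 2.50, 1.19, 1.41, 0.333, 0.441 and 1.05 RPKM in series b, in the order 1 to 21. Number 1 was the highest in each series, and numbers 13 and 17 were the lowest 4 of the 12. Its fitted peak was 2.56 ± 0.57, its amplitude 0.98 ± 0.15 and its adjusted p 0.10, resting on about 31 to 350 counted reads per library. Mfsd2a, the transporter of lysolipids at the blood-brain barrier, read 12.4, 15.7, 5.44, 5.87, 4.76 and 9.58 RPKM in series a and 11.1, 8.94, 6.03, 3.99, 6.40 and 6.15 RPKM in series b. Its fitted peak was 2.09 ± 0.70 and its amplitude 0.66 ± 0.12 (adjusted p = 0.442). Numbers 1 and 5 held the highest 2 values in either series. Spon2, a secreted matrix protein, averaged 0.55 RPKM with a fitted peak at 10.34 ± 0.59 (amplitude 0.74 ± 0.12, adjusted p = 0.105), and Smim40 averaged 0.53 RPKM (adjusted p = 0.442). Both sat barely above the filter of 0.5 RPKM, and Spon2 was listed at 0 in the series a library at number 1.

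None of the core clock genes was called. Of 24 members tested, 0 passed limma's adjusted threshold and 11 (45.8%) had an unadjusted p below 0.05, against 2.61% of all genes. Their median amplitude was 0.306, against 0.161 over all genes. Of the 24, 16 had fitted peaks within 4 units of each other in the 2 series, as did 5487 of all 13408 genes. Of the 11, 10 peaked between numbers 17 and 3, Nfil3 being the exception, but so did 258 of the 350 genes with an unadjusted p below 0.05 and 9274 of all 13408, so that window is where most genes peaked.

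Among the repressors of the loop, Ciart (a light-responsive inhibitor of CLOCK and BMAL1) read 6.51, 4.13, 2.76, 3.89, 5.18 and 6.62 RPKM in series a and 5.06, 2.63, 2.56, 3.59, 3.53 and 7.34 RPKM in series b. Both series were highest at number 21 and lowest at number 9. The amplitude was 0.57 ± 0.11, 2.19-fold from trough to peak, and the peak 21.45 ± 0.77 (adjusted p = 0.849). Per3 read 5.32, 6.82, 1.88, 3.12, 3.48 and 7.58 RPKM in series a and 3.76, 3.54, 2.40, 3.13, 3.64 and 4.52 RPKM in series b, also highest at number 21 and lowest at number 9 in each. Its peak was 23.03 ± 1.08, with an amplitude of 0.50 ± 0.14. Per1 followed at 23.87 ± 1.30 (amplitude 0.38 ± 0.13) and Per2 at 0.23 ± 1.40 (amplitude 0.51 ± 0.19). Per2 reached 6.03 RPKM in series a at number 5, where the series b library held 2.31 RPKM, so the 2 series were far apart at that number. The cryptochromes came next, Cry2 at 0.36 ± 1.53 (amplitude 0.31 ± 0.12) and Cry1 at 2.76 ± 1.69 (amplitude 0.27 ± 0.12). The peaks of Per1, Per2, Per3 and Cry2 lie within their errors of each other, so no order among them can be read. The kinases that mark PER for decay, Csnk1d (peak 1.73 ± 1.40) and Csnk1e (0.93 ± 1.89), had amplitudes of 0.33 and 0.26. Apart from Ciart, each of these genes had an adjusted p of 0.921.

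Among the nuclear receptors, Nr1d1 (REV-ERB alpha) peaked before the other members of the group between numbers 17 and 3. Its series a libraries read 4.39, 11, 5.37, 12.6, 10.9 and 15.7 RPKM, and its series b libraries 12.1, 5.91, 5.35, 11, 13.6 and 9.93 RPKM. The lowest values lay at numbers 1 and 9 in series a and at 5 and 9 in series b. The fitted peak was 18.12 ± 1.28 with an amplitude of 0.51 ± 0.17 (adjusted p = 0.921). Nr1d2 (REV-ERB beta) peaked at 22.12 ± 1.11 with an amplitude of 0.44 ± 0.13 (adjusted p = 0.921). Of the activating receptors of the same element, Rora and Rorb had amplitudes of 0.04 ± 0.13 (adjusted p = 0.992) and 0.14 ± 0.14 (adjusted p = 0.93), and their fitted peaks have errors of 3.89 or more and so place nothing.

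The output factors are the PAR bZIP activators Dbp, Tef and Hlf and the repressor Nfil3, which binds the same D-box sites. Dbp read 25.9, 33.7, 12.5, 26.2, 24.7 and 54.7 RPKM in series a and 46.5, 25.4, 15, 23.8, 32.7 and 44.2 RPKM in series b. Number 9 was the lowest in both series, and the highest lay at number 21 in series a and at number 1 in series b. The amplitude was 0.69 ± 0.14, the largest of the 24 clock genes, which is 2.6-fold from trough to peak, and the peak was 21.82 ± 0.75 (adjusted p = 0.798). Tef peaked later, at 0.22 ± 0.95 (amplitude 0.47 ± 0.12, adjusted p = 0.921), and Hlf was weaker (amplitude 0.19 ± 0.12, adjusted p = 0.921). Nfil3 stood opposite to Nr1d1, with a peak at 6.37 ± 1.20 and an amplitude of 0.48 ± 0.15 (adjusted p = 0.921). Its series b libraries went from 6.94 RPKM at number 1 through 5.75, 5.66, 5.05 and 3.69 RPKM to 3.43 RPKM at number 21. Series a did not follow that course at number 1, where it held 2.81 RPKM, and was highest at number 5 with 9 RPKM.

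Among the activators, Arntl read 4.67, 7.58, 6.42, 6.17, 3.96 and 4.40 RPKM in series a and 4.40, 4.45, 5.46, 5.80, 4.47 and 4.23 RPKM in series b. Its peak was 8.75 ± 1.52 and its amplitude 0.27 ± 0.11 (adjusted p = 0.921). Its partners Clock (amplitude 0.13 ± 0.13) and Npas2 (0.15 ± 0.16) had peak errors of 3.88 and 4.13, so that no phase can be read. Arntl2 peaked at 22.40 ± 1.5 (amplitude 0.31 ± 0.12). The E-box competitors Bhlhe41 and Bhlhe40 had amplitudes of 0.35 ± 0.12 and 0.17 ± 0.14, with Bhlhe41 highest near number 0 (± 1.35) and Bhlhe40 near 23.31 (± 3.21). The adjusted p was 0.921 for Arntl2 and Bhlhe41, 0.93 for Clock, 0.935 for Npas2 and 0.922 for Bhlhe40.

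**Figure D2:**
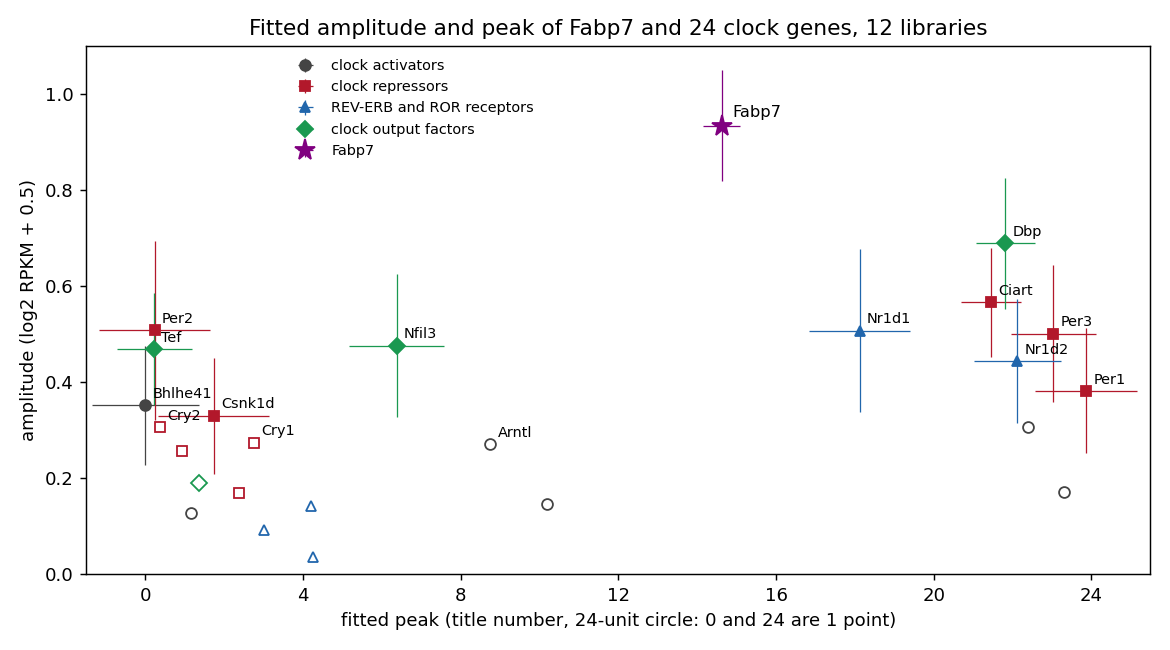
Fitted amplitude (vertical axis, log2 units of RPKM + 0.5) against fitted peak (horizontal axis, title number) for Fabp7 and the 24 clock genes, with colours and shapes for the 4 roles. Filled symbols with SE bars had an unadjusted p below 0.05 and open symbols did not; filled clock genes lie between 18.12 and 1.73 except Nfil3 at 6.37, and Fabp7 stands alone at 14.62.

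The windows of Ciart and Per1 are shown because they hold the elements through which the loop is known to act. The capitals mark the E-box CACGTG and, in Per1 alone, also the D-box TTATGCAA, from the same RefSeq promoters on GRCm38.p6.
Ciart, chr3:95882179-95882478 (minus strand): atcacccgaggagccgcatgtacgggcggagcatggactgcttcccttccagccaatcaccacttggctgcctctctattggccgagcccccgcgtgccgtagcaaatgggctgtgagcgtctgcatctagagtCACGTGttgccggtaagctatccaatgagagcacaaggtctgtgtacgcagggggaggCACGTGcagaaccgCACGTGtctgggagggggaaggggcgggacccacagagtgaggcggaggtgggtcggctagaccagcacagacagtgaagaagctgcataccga
Per1, chr11:69098699-69098998 (plus strand): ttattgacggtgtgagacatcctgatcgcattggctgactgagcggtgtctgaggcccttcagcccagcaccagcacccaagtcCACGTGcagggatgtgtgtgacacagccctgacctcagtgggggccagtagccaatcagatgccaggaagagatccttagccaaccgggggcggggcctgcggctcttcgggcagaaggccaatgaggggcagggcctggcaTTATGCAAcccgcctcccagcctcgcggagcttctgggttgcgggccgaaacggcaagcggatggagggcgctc
Ciart held 3 E-boxes, beginning at bases 135, 193 and 207, and Per1 held 1 E-box at base 85 and 1 D-box at base 227. The Per1 window belongs to the start RefSeq gives; GENCODE M21 begins the gene upstream, at position 69095217 of chromosome 11, so the window lies inside the gene in that annotation. Among the 19 clock genes with an entry, 5 had the E-box (Bhlhe41, Ciart, Cry1, Per1 and Tef), against 7.2% of all promoters, and 2 had a D-box (TTATGTAA or TTATGCAA, in Per1 and Per3), against 1.7%. CACGTG reads the same on both strands, so a match counts once.

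The fitted peaks of Nr1d1, Ciart, Dbp, Per3 and Arntl moved by up to about 2 units with the scaling, and their order was not fixed. That of Per2, whose amplitude was 0.51, moved further, from 0.23 to 21.38 with the mitochondrial share as a covariate. Nfil3 went from 6.37 to 8.71 and Per1 from 23.87 to 21.7 in the same fit. After quantile normalization Nr1d1 peaked at 17.32, Ciart at 20.67, Dbp at 21.02, Per3 at 22.38 and Arntl at 10.04. With the mitochondrial share as a covariate, Nr1d1 peaked at 16.47, Dbp at 20.28, Per3 at 21.05, Ciart at 21.28 and Arntl at 10.27, so Ciart came before Dbp and Per3 in the deposited values and after both here. Over the 29 alternatives the peak moved by at most 0.95 for Ciart, 1.54 for Dbp, 1.68 for Nr1d1, 1.97 for Per3 and 2.37 for Arntl. The largest move was 2.29 for Per1, 2.35 for Nfil3 and 2.84 for Per2. For clock genes of small amplitude the peak moved by up to 6.6 for Bhlhe40, 6.81 for Hlf, 6.83 for Npas2, 7.98 for Rorb, 9.79 for Clock and 11.07 for Rora.

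Of 12 genes that mark the suprachiasmatic nucleus, 0 were called by limma and 2 had an unadjusted p below 0.05. Vip, a peptide that couples its neurons, read 14.3, 7.32, 5.52, 6.68, 7.93 and 11.9 RPKM in series a and 8.64, 6.88, 7.82, 6.65, 8.99 and 9.72 RPKM in series b. Numbers 1 and 21 were the highest in series a, and 21 and 17 in series b. Its fitted peak was 22.30 ± 1.06 and its amplitude 0.40 ± 0.11 (adjusted p = 0.921). Rasd1, a dexamethasone-inducible G protein, was the other gene with an unadjusted p below 0.05 as deposited. It had a peak at 1.28 ± 1.36 (amplitude 0.33 ± 0.12, adjusted p = 0.921). Avp is made there and, in far larger amount, by the neurohypophysial neurons, and read 1600 to 7580 RPKM with an amplitude of 0.11 ± 0.22 (adjusted p = 0.972). In a whole-hypothalamus pool a change in 1 nucleus and a change in the share of that nucleus in the dissected tissue cannot be told apart.

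Genes known to answer glucocorticoid hormone gave the next largest count among the lists examined. Of 18 tested, 0 were called by limma and 8 (44.4%) had an unadjusted p below 0.05, against 2.61% of all genes. Of the 18, 16 peaked between numbers 19 and 7, where 11248 of all 13408 genes also peaked. Tsc22d3 (GILZ, an anti-inflammatory leucine zipper protein) read 76.9, 42.3, 20.3, 19, 20.6 and 40.4 RPKM in series a and 39.6, 27.8, 29.7, 25, 26.6 and 29.7 RPKM in series b. Number 1 was the highest in both. The fitted peak was 1.10 ± 0.83 and the amplitude 0.61 ± 0.13 (adjusted p = 0.921). Sgk1, a kinase that raises sodium uptake, read 29, 17.6, 3.55, 4.29, 3.17 and 12.9 RPKM in series a, but only 3.84 to 5.49 RPKM in series b. Its amplitude was 1.55 in series a and 0.22 in series b, around a joint value of 0.88 ± 0.21 (peak 1.23 ± 0.91, adjusted p = 0.921). Fkbp5, a co-chaperone that damps the hormone receptor, read 10.9, 4.94, 2.25, 2.71, 2.08 and 4.90 RPKM in series a and 4.74, 3.53, 3.79, 2.86, 3.66 and 4.93 RPKM in series b (peak 0.74 ± 0.96, amplitude 0.61 ± 0.15, adjusted p = 0.921). All 3 were highest in the series a library at number 1, the one whose blood markers summed to 6255 RPKM, and the part of those cells in it was not tested. Without that library the amplitudes were 0.67 for Sgk1, 0.42 for Fkbp5 and 0.45 for Tsc22d3, with peaks that moved by at most 0.12 (adjusted p = 0.702 for each). The amplitude was larger in series a than in series b for 17 of the 18 genes, and for 10948 of all 13408. Mt2, a metallothionein, had an amplitude of 1.13 ± 0.41, but its value of 0.977 RPKM in the series a library at number 17, stood against 17.9 RPKM or more elsewhere, and without that library the amplitude was 0.40.

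Heat shock chaperones help refold damaged proteins and answer warmth and stress. Of 18 tested, 0 were called by limma and 4 (22.2%) had an unadjusted p below 0.05, against 2.61% of all genes. The 18 fitted peaks lay between 3.53 and 7.80, and 17.2% of all genes peaked between numbers 3 and 7. Their phase changed with the scaling. As deposited, 2 of the 18 peaked between numbers 7 and 19. Quantile-normalized values put 8 there, and the fit that allowed for mitochondrial RNA put 9 there. Of all genes, 46.8% and 62.1% peaked there under those scalings. Hspb1, a small chaperone, read 44.0, 37.5, 42.1, 20.8, 16.4 and 15 RPKM in series a and 51.7, 35.2, 63.9, 31.3, 29.8 and 29.4 RPKM in series b. Numbers 1, 5 and 9 held the 3 highest values in each series. That split was read from the values, and how many other genes divide so was not counted. Its amplitude was 0.61 ± 0.14 and its peak 5.72 ± 0.86 (adjusted p = 0.921). Hspa1b, the inducible HSP70, read 3.55, 7.60, 2.46, 1.07, 0.696 and 1.24 RPKM in series a and 6.13, 2.66, 15.8, 1.77, 3.03 and 1.03 RPKM in series b (peak 5.67 ± 0.96, amplitude 1.04 ± 0.26, adjusted p = 0.921). The high libraries were number 5 in series a and number 9 in series b, and in both series the values at 13 and 21 were below 2 RPKM. Dnajb1, an HSP40 partner, peaked at 4.67 ± 1.18 and Hspa1a at 6.03 ± 1.41. The RefSeq window of Hspb1 on GRCm38.p6 is shown with the pair of inverted heat shock units GAANNTTC in capitals.
Hspb1, chr5:135887669-135887968 (plus strand): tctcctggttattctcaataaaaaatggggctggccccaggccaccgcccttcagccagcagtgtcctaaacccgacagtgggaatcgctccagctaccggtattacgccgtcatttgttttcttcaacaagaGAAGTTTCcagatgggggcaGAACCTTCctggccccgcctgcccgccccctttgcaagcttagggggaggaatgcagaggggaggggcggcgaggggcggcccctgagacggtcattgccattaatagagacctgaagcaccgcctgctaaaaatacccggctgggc
It held 2 matches, beginning at bases 134 and 154, and 7.9% of all promoters held at least 1. Of 4 genes in the list of cold-inducible RNA-binding proteins, 0 were called by limma and 3 had an unadjusted p below 0.05. These did not share a phase. Rbm3 read 43.8, 19.2, 15.3, 19.7, 20.9 and 38.8 RPKM in series a and 20, 18.6, 10.3, 22.3, 18.2 and 27.8 RPKM in series b. Number 9 was its lowest in both. Its peak was 21.89 ± 0.88 (amplitude 0.56 ± 0.13) and that of its relative Cirbp 21.29 ± 1.33 (amplitude 0.34 ± 0.12), both with an adjusted p of 0.921. The third, the splicing factor Sfpq, peaked at 3.59, within the range of the chaperones (adjusted p = 0.921).

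**Figure D3:**
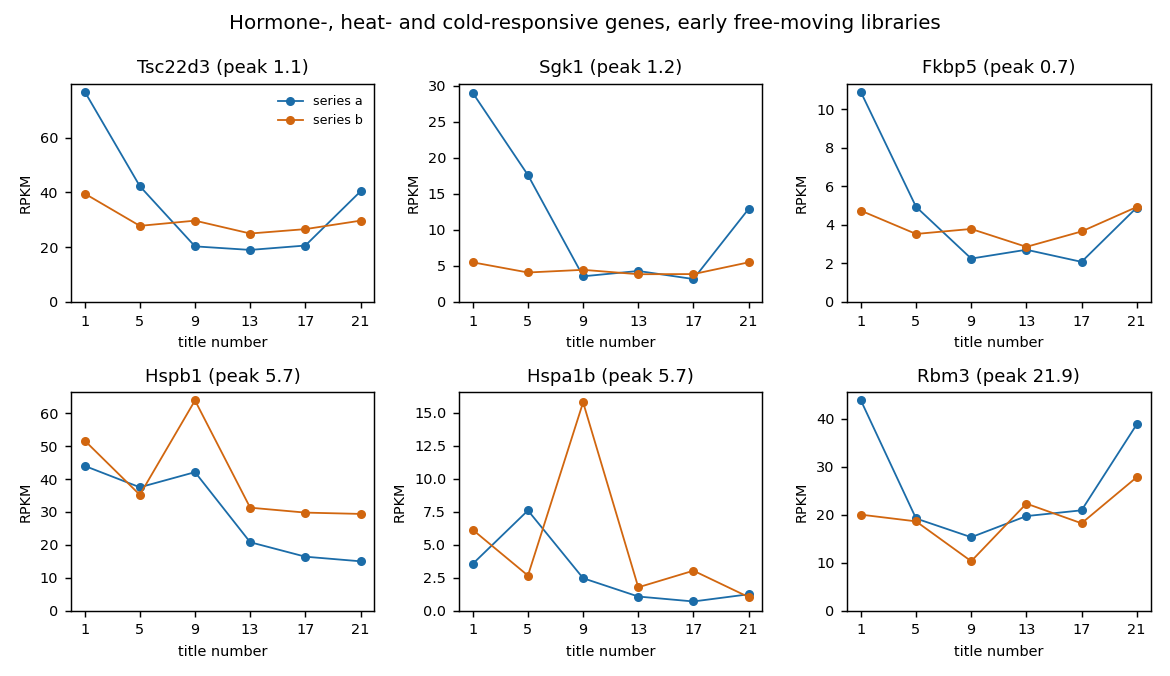
RPKM (vertical axis, from 0) against title number for 3 glucocorticoid-responsive genes, 2 heat shock genes and the cold-inducible Rbm3, 1 point per library, series a in blue and series b in orange. Sgk1 spans 3.17 to 29 RPKM in series a and 3.84 to 5.49 RPKM in series b, and Hspb1 is higher at numbers 1, 5 and 9 than at the others in both.

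Immediate early genes report recent neuronal activity. Of 20 tested, 0 were called by limma and 3 (15%) had an unadjusted p below 0.05, against 2.61% of all genes. As deposited, 10 of the 20 peaked between numbers 7 and 19, against 16.1% of all genes. Quantile-normalized values put 15 there, against 46.8% of all genes. The fit that allowed for mitochondrial RNA put 17 there, against 62.1%. Fos ranged from 2.81 to 13.8 RPKM (median 4.72) with a peak at 8.13 ± 1.20 and an amplitude of 0.53 ± 0.17 (adjusted p = 0.921). Its highest library was number 5 in series a and number 13 in series b. Nr4a1, an orphan receptor of the same class, peaked at 9.59 ± 1.24 (amplitude 0.47 ± 0.15, adjusted p = 0.921) and was highest at number 13 in both series, with 11 and 10.3 RPKM.

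Neuropeptides showed no called course. Of 14 feeding and arousal peptides, 0 were called by limma and 0 had an unadjusted p below 0.05, with a median amplitude of 0.22 against 0.161 over all genes. The hunger peptides Agrp and Npy ranged from 20 to 136 RPKM and from 81.3 to 290 RPKM, with amplitudes of 0.22 ± 0.25 (adjusted p = 0.937) and 0.18 ± 0.18 (adjusted p = 0.928). Both were highest in the series a library at number 1. The satiety precursor Pomc (50.6 to 165 RPKM) had an amplitude of 0.07 ± 0.15 (adjusted p = 0.978). The arousal peptide Hcrt (orexin, 151 to 385 RPKM) had one of 0.23 ± 0.13 (adjusted p = 0.921) and Pmch (melanin-concentrating hormone, 70.9 to 389 RPKM) one of 0.25 ± 0.23 (adjusted p = 0.922). Oxt (1210 to 3230 RPKM) had an amplitude of 0.18 ± 0.17 (adjusted p = 0.927). Crh, the releasing hormone at the head of the stress axis, read 4.03 to 11.6 RPKM with an amplitude of 0.17 ± 0.15 (adjusted p = 0.922). The errors are about as large as the amplitudes, so these values do not show that the peptides were constant.

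RNA encoded by the mitochondrial genome took a large and uneven part of each library. The 13 genes made up 37.0%, 18.7%, 54.4%, 48.5%, 62.4% and 29.7% of the summed RPKM in series a and 31.7%, 45.9%, 53.2%, 42.0%, 45.1% and 49.2% in series b. Number 5 was the lowest in series a and number 1 in series b, and the highest were numbers 17 and 9. A cosine with the series as a factor explained 0.354 of the variance in the log2 odds within series, with a peak at 13.98. An exact permutation test over 518400 orders of the libraries within series gave p = 0.173 for it. All 13 genes had fitted peaks between 13.45 and 15.97. Of them, 0 were called by limma and 3 (23.1%) had an unadjusted p below 0.05, against 2.61% of all genes. The largest amplitude was that of mt-Nd4l, a subunit of complex I, at 1.00 ± 0.31 (adjusted p = 0.921). It differed between the series, at 1.91 in series a and 0.22 in series b. In the series a library at number 1 mt-Nd4l read 674 RPKM, against 2040 to 13000 RPKM elsewhere. The mitochondrial genes did not move together in that library, where mt-Co2 (54600 RPKM) and mt-Nd6 (13200 RPKM) had their highest values.

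RPKM is scaled to the whole library, and most other genes ran against the mitochondrial share. The correlation of a gene with the mitochondrial log2 odds over the 12 libraries had a median of -0.63, and 8600 of 13408 genes lay below -0.5. As deposited, 54.6% of all genes had their fitted peak between numbers 23 and 3, and 16.1% between 7 and 19. Quantile normalization put 46.8% of genes in that second window, and the covariate for mitochondrial RNA put 62.1% there. The shared phase of the bulk of genes near number 1 changed with the scaling, so a fitted peak near that number carries little weight by itself. Fabp7 peaked near the mitochondrial genes and had a correlation of 0.626 with their log2 odds over the 12 libraries. Its peak was 14.52 after quantile normalization and 14.69 with the covariate. Its amplitude was 1.08 and 0.84 in those fits, in which it was not called (adjusted p = 0.118 and 0.27), and 1.08 with the mitochondrial genes removed, where it was (0.0124). Plin4 peaked at 2.67 and 2.58 under the same scalings, and Hspb1 at 6.78 and 5.48.

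**Figure D4:**
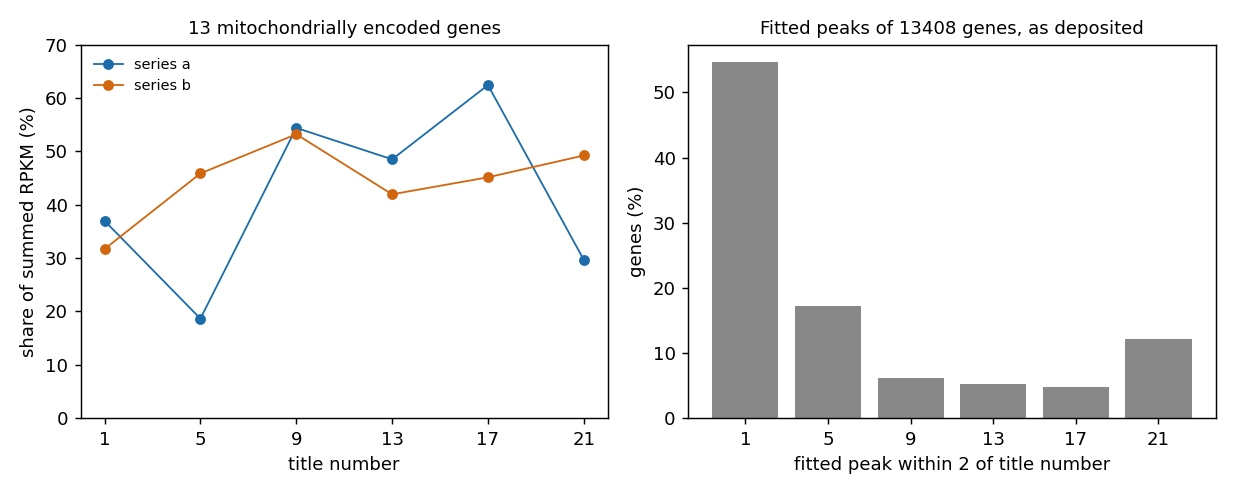
Left, share of the summed RPKM held by the 13 mitochondrially encoded genes (vertical axis, %) against title number, 1 point per library, series a in blue and series b in orange. Right, percent of the 13408 genes whose fitted peak lies within 2 units of each title number in the deposited values, led by 54.6% at number 1.

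All 48 libraries were then fitted together, with 1 cosine for each condition and 1 shared estimate of the spread. In that fit 36 of 13685 genes (0.263%) were called in the early free-moving libraries. Fabp7 (adjusted p = 0.000812), Tsc22d3 (0.00175), Ciart, Mfsd2a and Rbm3 (each 0.00648), Plin4 (0.0144), Dbp (0.015), Fkbp5 (0.0204) and Hspb1 (0.0477) were among them. The median spread about a gene's own cosine was 0.302 log2 units in these libraries, against 0.238 in early unloaded, 0.112 in late quiet and 0.242 in late noise. The shared estimate is thus smaller than their own, which makes these p-values too small for them. In the same fit 3 of 13685 genes were called in early unloaded, 47 in late quiet and 1584 in late noise. The mitochondrial share also varied with the title number in late noise. It was 15.12% at number 5 and 38.8% at number 17 in the free-moving series. In the unloaded series it was 10.49% at number 5 and 50.04% at number 13. Its part in the late noise count was not tested.

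The Fabp7 peak lay between 13.68 and 15.28 in every condition. It was 14.62 ± 0.53 in early free-moving, 13.68 ± 0.58 in early unloaded, 14.57 ± 0.67 in late quiet and 15.28 ± 0.46 in late noise libraries, with amplitudes of 0.93, 0.845, 0.74 and 1.07. It was called in each of the other conditions, with adjusted p-values of 0.007, 0.00581 and 3.28e-05. The test of the difference from early free-moving gave adjusted p-values of 0.599, 0.998 and 0.942, with differences of the cosine vector of 0.24 ± 0.18, 0.20 ± 0.18 and 0.22 ± 0.18. Arntl peaked at 8.75 ± 1.03, 8.89 ± 0.66, 8.12 ± 1.09 and 7.45 ± 1.57 in the same order. Dbp peaked at 21.82 ± 0.70 in early free-moving and 22.54 ± 0.50 in late noise, and at 17.22 ± 0.91 in early unloaded and 19.58 ± 0.80 in late quiet (adjusted p of the differences from early free-moving 0.894, 0.145 and 0.965). Nr1d1 peaked at 18.12 ± 1.01, 15.02 ± 0.81, 17.75 ± 1.29 and 21.69 ± 0.84, and no difference passed (adjusted p = 0.21, 0.999 and 0.65). These peaks are those of the deposited values. In 1 early unloaded series the mitochondrial share was 48.16% at number 1 and 11.21% to 18.49% at the other numbers. The part of that share in the early unloaded peaks was not tested.

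**Figure D5:**
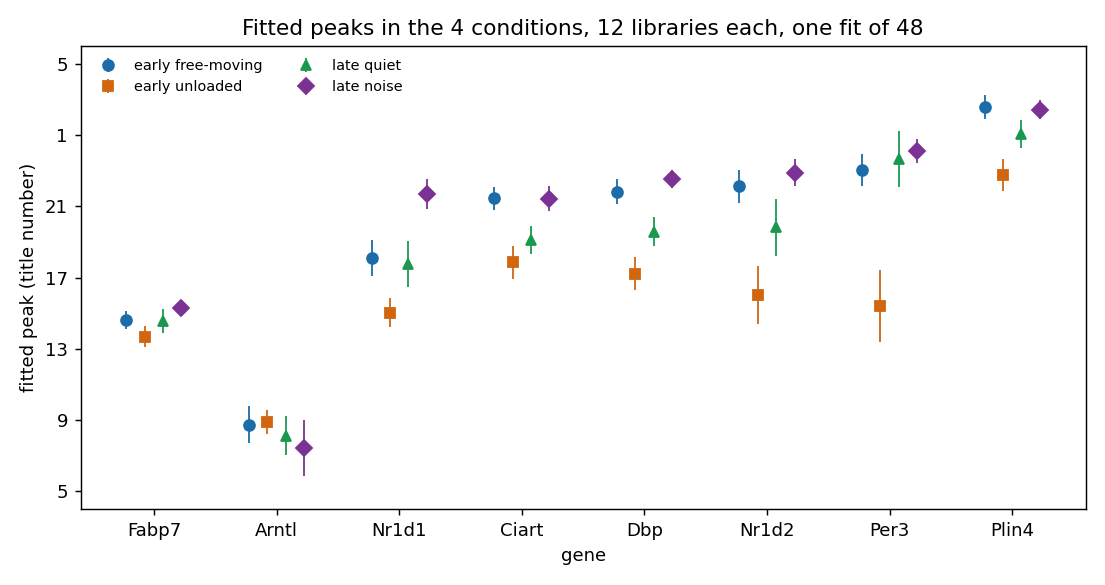
Fitted peak (vertical axis, title number, continued past 24 so that 25 reads as 1) with its SE for 8 genes in the 4 conditions, 12 libraries each, from 1 fit of 48 libraries. Fabp7 and Arntl peak within 2 units in all 4, while early unloaded libraries give earlier peaks than early free-moving ones for Nr1d1, Ciart, Dbp, Nr1d2, Per3 and Plin4, none of which passed the test of the difference. All peaks are those of the deposited values.

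Across all genes, the daily course of early free-moving libraries differed from that of early unloaded ones for 0 of 13685 genes (0%) by limma, with 3511 at an unadjusted p below 0.05. The unadjusted count depended on the scaling. It fell to 1351 in quantile-normalized values and to 596 when mitochondrial RNA was allowed for. It was 3547 with a pseudocount of 0.1 and 3790 with no filter on low values. In each of these settings 0 genes passed. The smallest adjusted p-values were those of Prss50 and Pecr (each 0.0712), then Trak2, Oxsr1 and Sgk1 (each 0.145). Pecr, a peroxisomal reductase of fatty acid elongation, peaked at 23.20 in early free-moving and 11.43 in early unloaded libraries, and Sgk1 at 1.23 and 17.50. One library weighed on the count of genes that passed: without the series b library at number 13 it was 579. Against late noise 0 genes (0%) passed in limma and 1001 had an unadjusted p below 0.05; the smallest adjusted p was 0.314, shared by Ankrd37, Rad52, Lonrf3 and Rdh5, followed by Ctu2 at 0.594.

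Against late quiet, 7 genes (0.0512%) passed: Tnnt1, Ramp3, Necab3, Gbx2, Synpo2, Tcf7l2 and Prkcd, and 721 had an unadjusted p below 0.05. For 6 of them the amplitude was 0.15 to 0.41 in early free-moving and 0.71 to 1.68 in late quiet libraries. Necab3 was different, with amplitudes of 0.28 ± 0.09 and 0.47 ± 0.09 and nearly opposite peaks, at 1.15 in early free-moving and 13.49 in late quiet libraries. Prkcd, a kinase strong in thalamic relay neurons, had an amplitude of 0.22 ± 0.21 in early free-moving and 1.51 ± 0.21 (peak 13.49) in late quiet libraries. In the early free-moving series a it read 7.70, 8.99, 5.01, 10.9, 8.19 and 5.39 RPKM, and in series b 9.64, 9.94, 7.10, 5.69, 5.55 and 4.48 RPKM. In the late quiet free-moving series it read 4.69, 6.17, 38.7, 50.8, 47.5 and 4.43 RPKM, and in the late quiet unloaded series 5.35, 6.66, 29.8, 20.6, 22.1 and 26.4 RPKM. The 2 late quiet series were both low at numbers 1 and 5 and were far apart at number 21. Tcf7l2 and Gbx2, transcription factors of the developing and adult thalamus, had amplitudes of 0.15 and 0.41 in early free-moving and 1.10 and 1.5 in late quiet libraries. Thalamus markers in the early free-moving libraries summed to 197.6 to 287 RPKM, with 0 of 10 called by limma and 0 at an unadjusted p below 0.05. Calb2 alone made up most of that sum, at 169 to 252 RPKM. In late quiet libraries Calb2 read 157 to 191 RPKM in the free-moving series and 209 to 227 RPKM in the unloaded series. Of the 10 markers, 4 were among the 7 genes that passed. The list was chosen with earlier results of these data known, so this overlap is not a test. Rora, Lef1, Zic1, Ntng1 and Plekhg1 did not pass. In the late quiet free-moving series they too were highest at number 13 or 17. There Rora read 2.44 to 7.69 RPKM, Zic1 10.8 to 25 RPKM and Plekhg1 2.71 to 8.45 RPKM. How much neighbouring thalamus each dissection held was not tested.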

How the data were processed

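The deposited table holds RPKM values for 21558 genes in 48 hypothalamus libraries, made by the authors with CASAVA 1.8 and HISAT, per the submitters' processing notes. Genome build, annotation and counting tool: not given in the sources used here. Values were used as log2(RPKM + 0.5), keeping the 13408 genes whose mean RPKM over the 12 early free-moving libraries was at least 0.5. limma 3.58.1 (R 4.3.3) fitted a cosine and a sine of period 24 with the series as a factor (8 residual degrees of freedom, moderated variances with an intensity trend). Conditions were compared in 1 fit of 48 libraries (13685 genes, 32 residual degrees of freedom). The fits were tested on simulated data.

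Named genes were those called, all clock genes that passed the filter, up to 4 called members of each other list, 11 preset hormone and activity genes, and the 5 smallest p-values of each difference. The values of 2 clock genes are not reported here. Other named genes were chosen after their values were seen. The members, lists and rules were chosen with earlier results of these data known. Depth was estimated from the RPKM steps of single-exon genes: 74.6% to 87.7% of their low values in a library were whole multiples of 1 step, or of 0.5 of it, within 0.5%. That both series carry the same title numbers was not taken as a pairing of libraries; deviations from the number means correlated within a series with a median of 0.075 over 15 pairs. Promoter windows are RefSeq's, on GRCm38.p6, and matches were exact. Alternatives were other scalings, pseudocounts, filters, weights and subsets of libraries.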

Additional observations from a re-analysis of the deposited data

Results flagged for a closer look

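For 7 genes the test of the difference in daily course between early free-moving and late quiet libraries passed limma's adjusted threshold. The adjusted p was 0.00798 for Tnnt1, 0.0151 for Ramp3, 0.0174 for Necab3, 0.0174 for Gbx2, 0.0209 for Synpo2, 0.0235 for Tcf7l2 and 0.0315 for Prkcd. The amplitudes in early free-moving and late quiet libraries were 0.30 and 1.68 for Tnnt1, 0.21 and 1.60 for Ramp3, 0.28 and 0.47 for Necab3, 0.41 and 1.5 for Gbx2, and 0.27 and 0.71 for Synpo2. In late quiet libraries all 7 peaked between 13.24 and 13.91. The late quiet pair joins 1 free-moving and 1 unloaded series, so the difference also spans unloading and age. The call rests on single libraries: without the series b library at number 1 in the early free-moving group 0 genes passed, and fitted on the 24 libraries of these 2 conditions alone 0 passed, with 674 at an unadjusted p below 0.05.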

How the results depend on the processing

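The count of called genes, 1, was the same with a pseudocount of 0.1, with the mitochondrial genes removed, and without the replicate block that the series factor makes (1 called, 358 at an unadjusted p below 0.05). It was 0 with no filter on low values (628 unadjusted), after quantile normalization (504), after centring on the median gene (512), with the mitochondrial share as a covariate (476), with the title number as a factor (388) and in series a alone (135). It was 7 in series b alone and 36 with the spread taken from all 48 libraries. Array weights gave 390, from an estimate that stopped before convergence and put weights of 20.5 and 8.97 on 2 libraries (series b at number 17 and series a at number 13), against 1.94 or less on the others. Leaving out single libraries gave 0 to 3 calls, and leaving out both libraries of a title number gave 4 without number 5 and 0 without 13 or 17. The share of called genes peaking in numbers 7 to 19, 100% for the single gene, ranged from 0% to 100% when single libraries were left out; settings with no call give no share.

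The difference from late quiet, 7 genes, was 7 with a pseudocount of 0.1 and with no replicate block, 10 with the covariate, all 7 among them, and 0 with no filter, after quantile normalization and on the 24 libraries alone; leaving out single early free-moving libraries gave 0 to 12. That from early unloaded, 0 genes, ranged from 0 to 579 and that from late noise stayed at 0 in the settings run. The amplitude of the mitochondrial share was 0.62 log2 odds, 0.46 to 0.80 without single libraries, 1.03 in series a and 0.26 in series b. For genes with an unadjusted p below 0.05 among those followed, no setting moved the peak by more than 6 units. Depth limits genes near the filter, such as Spon2 with 86 counted reads at most.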
